A study of Saccharomyces cerevisiae with 16 samples.

Results

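The 8 genes described here encode parts of the Ras and protein kinase A pathway of budding yeast (Saccharomyces cerevisiae): RAS1 and RAS2, CYR1, PDE1 and PDE2, BCY1, and TPK3 and TPK2. They are 8 of 5449 S. cerevisiae genes with a named probe set on the array. The genes were chosen by name from the pathway together with their measured levels in the 4 groups of arrays labelled Taf4, where TPK3 was set against its paralogs. Their values in those arrays are therefore a description, and counts of genes past a threshold there stand beside the share of all genes and support nothing. Each of the 8 genes had 1 probe set, and all 8 passed the filter that left out the dimmest 20% of genes.

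In this pathway the small GTPases Ras1 and Ras2, switched on by bound GTP, stimulate adenylate cyclase, the product of CYR1, which makes cyclic AMP. Cyclic AMP binds Bcy1, the regulatory subunit of protein kinase A, and frees the catalytic subunits encoded by the TPK genes, while the phosphodiesterases Pde1 and Pde2 break cyclic AMP down. The pathway is known for its activity in cells growing on glucose, where the kinase promotes growth and holds back the stress transcription factors Msn2 and Msn4.

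The series asks how many yeast genes depend on TFIID, a general transcription factor that contains Taf4 and Taf5. In an anchor-away strain a nuclear protein carries an FRB tag, and rapamycin ties it to a tagged ribosomal protein that leaves the nucleus. Cultures received rapamycin or the solvent DMSO for 30 min, new RNA was labelled with 5 mM 4-thiouracil for 6 min, and labelled cells of fission yeast (Schizosaccharomyces pombe) were added as a spike-in, 3 S. cerevisiae to 1 S. pombe. Newly synthesized RNA is the labelled RNA purified from total RNA, and steady-state RNA is the total RNA. There were 8 groups of 2 samples: Taf4 newly synthesized with rapamycin and with DMSO, Taf4 steady-state with rapamycin and with DMSO, and the same 4 under the Taf5 label. All samples share the W303 parent and, as labelled, MATalpha, the tor1-1 allele, fpr1::NAT, RPL13A-2xFKB12::TRP1 and TAF4-FRB::HYGRO. The genotype field names TAF4-FRB for the Taf5 samples as well. The labels give 1 μg/mL rapamycin in the protocol and 5 μM in the design text. No strain without the FRB tag received rapamycin, so effects of the drug and of depletion cannot be told apart. Whether replicates are separate cultures is not stated, and every p-value reflects only the scatter of these samples, possibly technical.

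The 16 columns hold 10 distinct arrays, since 6 of the 8 columns labelled Taf5 equal a Taf4 column divided by 5 within 0.001 signal units. In each such pair the rapamycin label is the same and the strain and fraction labels differ, so the fraction labels are used here as given and are in doubt. Signals were shifted so that the S. pombe median was equal on every array, and fewer S. cerevisiae cells in a mix cannot be told apart from less RNA per cell. The alpha-specific genes MF(ALPHA)1, MF(ALPHA)2, STE3 and SAG1 lay between the 72.6th and 99.5th percentile of S. cerevisiae probe sets in the 8 Taf4-labelled arrays. The a-specific genes MFA1, MFA2, STE2, BAR1 and AGA2 lay between the 1.9th and 14.6th percentile, which is the order a MATalpha strain should give.

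With rapamycin all 8 genes had lower signals on both arrays than on either DMSO array, in newly synthesized and in steady-state RNA labelled Taf4. Such a separation was also seen in 92.9% of all 4360 tested genes in newly synthesized RNA and in 91.5% in steady-state RNA. The genes did not move alike. With S. pombe medians equal, RAS1 and TPK3 were lowest relative to DMSO, in both fractions, while their paralogs RAS2 and TPK2 moved less than the median gene. How far the paralogs differed depends on the scaling, as given below.

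RAS1 (YOR101W, chromosome XV, 515244 to 516173 in assembly R64) encodes 1 of the 2 Ras GTPases. In newly synthesized RNA its scaled signal was 95.1 and 80.7 array units with rapamycin, against 267 and 276 with DMSO. In steady-state RNA it was 137 and 113 with rapamycin, against 544 and 720 with DMSO. The 4 rapamycin arrays thus lay below all 4 DMSO arrays. The share of all genes that separate in this way across both fractions was not computed. The log2 change was -1.63 (SE 0.22) in newly synthesized RNA, a 3.10-fold lower level, and -2.33 (SE 0.22) in steady-state RNA, a 5.04-fold lower level. Only 1.1% and 0.8% of tested genes had a lower value in these comparisons.

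RAS2 (YNL098C, chromosome XIV, 439602 to 440570) encodes the other Ras GTPase. It had 823.5 and 758 units with rapamycin and 964 and 1084 with DMSO in newly synthesized RNA. In steady-state RNA it had 1055 and 1142 units with rapamycin and 1567 and 2374 with DMSO. The steady-state rapamycin arrays overlapped the newly synthesized DMSO arrays. Its log2 changes were -0.37 (SE 0.22) and -0.81 (SE 0.22) in newly synthesized and steady-state RNA, and 85.8% and 72.8% of tested genes had a lower value.

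CYR1 (YJL005W, chromosome X, 425157 to 431237), the adenylate cyclase gene, followed the median gene. Its newly synthesized signals were 103 and 101 units with rapamycin and 200 and 185 with DMSO, and its steady-state signals were 191 and 226 with rapamycin and 450 and 502 with DMSO. The changes were -0.91 (SE 0.21) and -1.20 (SE 0.21) on the log2 scale, which lie 0.13 and 0.02 below the median of all genes.

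PDE1 (YGL248W, chromosome VII, 35653 to 36762) encodes the low-affinity phosphodiesterase. Newly synthesized RNA gave 167 and 187 units with rapamycin and 310 and 326 with DMSO. Steady-state RNA gave 269 and 419 units with rapamycin and 1115 and 1486 with DMSO. The 2 steady-state rapamycin arrays straddled the newly synthesized DMSO arrays. The log2 change was -0.85 (SE 0.23) in newly synthesized RNA, near the median gene, and -1.94 (SE 0.23) in steady-state RNA, a 3.83-fold lower level that 5.2% of tested genes went below.

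PDE2 (YOR360C, chromosome XV, 1013241 to 1014821), the high-affinity phosphodiesterase gene, had newly synthesized signals of 263 and 357 units with rapamycin, against 378 and 496 with DMSO. Its steady-state signals were 909 and 1409 units with rapamycin, against 2187 and 2781 with DMSO. All 4 steady-state arrays lay above all 4 newly synthesized ones, and the share of all genes with this order was not computed. The log2 changes were -0.50 (SE 0.24) and -1.12 (SE 0.24) in newly synthesized and steady-state RNA.

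BCY1 (YIL033C, chromosome IX, 290419 to 291669), which encodes the regulatory subunit, had newly synthesized signals of 137 and 157 units with rapamycin and 226 and 276 with DMSO. Its steady-state signals were 171 and 234 with rapamycin and 390 and 543 with DMSO. The changes of -0.77 (SE 0.23) and -1.20 (SE 0.23) on the log2 scale were within 0.03 of the median gene in both fractions.

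TPK3 (YKL166C, chromosome XI, 134509 to 135705) encodes a catalytic subunit of the kinase. Newly synthesized RNA gave 79.1 and 102 units with rapamycin and 224 and 235 with DMSO. Steady-state RNA gave 134 and 215.5 units with rapamycin and 894 and 1218 with DMSO. The 4 rapamycin arrays were the lowest of the 8, and the 2 steady-state DMSO arrays stood far above the rest. As for RAS1, the share of all genes with the 4 rapamycin arrays lowest was not computed. The level was 2.55-fold lower in newly synthesized RNA (log2 change -1.35, SE 0.24) and 6.14-fold lower in steady-state RNA (-2.62, SE 0.24). In steady-state RNA TPK3 was 4th from the lowest of 4360 genes, and in newly synthesized RNA 5.6% of genes had a lower value. On the rapamycin arrays 30.1% to 37.7% of S. cerevisiae probe sets lay at or below TPK3, and 20.6% to 36.0% at or below RAS1. Whether these signals stood above the background of the array was not tested.

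TPK2 (YPL203W, chromosome XVI, 166256 to 167398), another catalytic subunit gene, had newly synthesized signals of 119 and 121 units with rapamycin, against 164 and 204 with DMSO. In steady-state RNA it had 172 and 239 units with rapamycin, against 381 and 445 with DMSO. The level was 1.53-fold lower in newly synthesized RNA (-0.61, SE 0.22) and 2.03-fold lower in steady-state RNA (-1.02, SE 0.22). These changes lay 0.17 and 0.15 above the median of all genes.

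**Figure D1:**
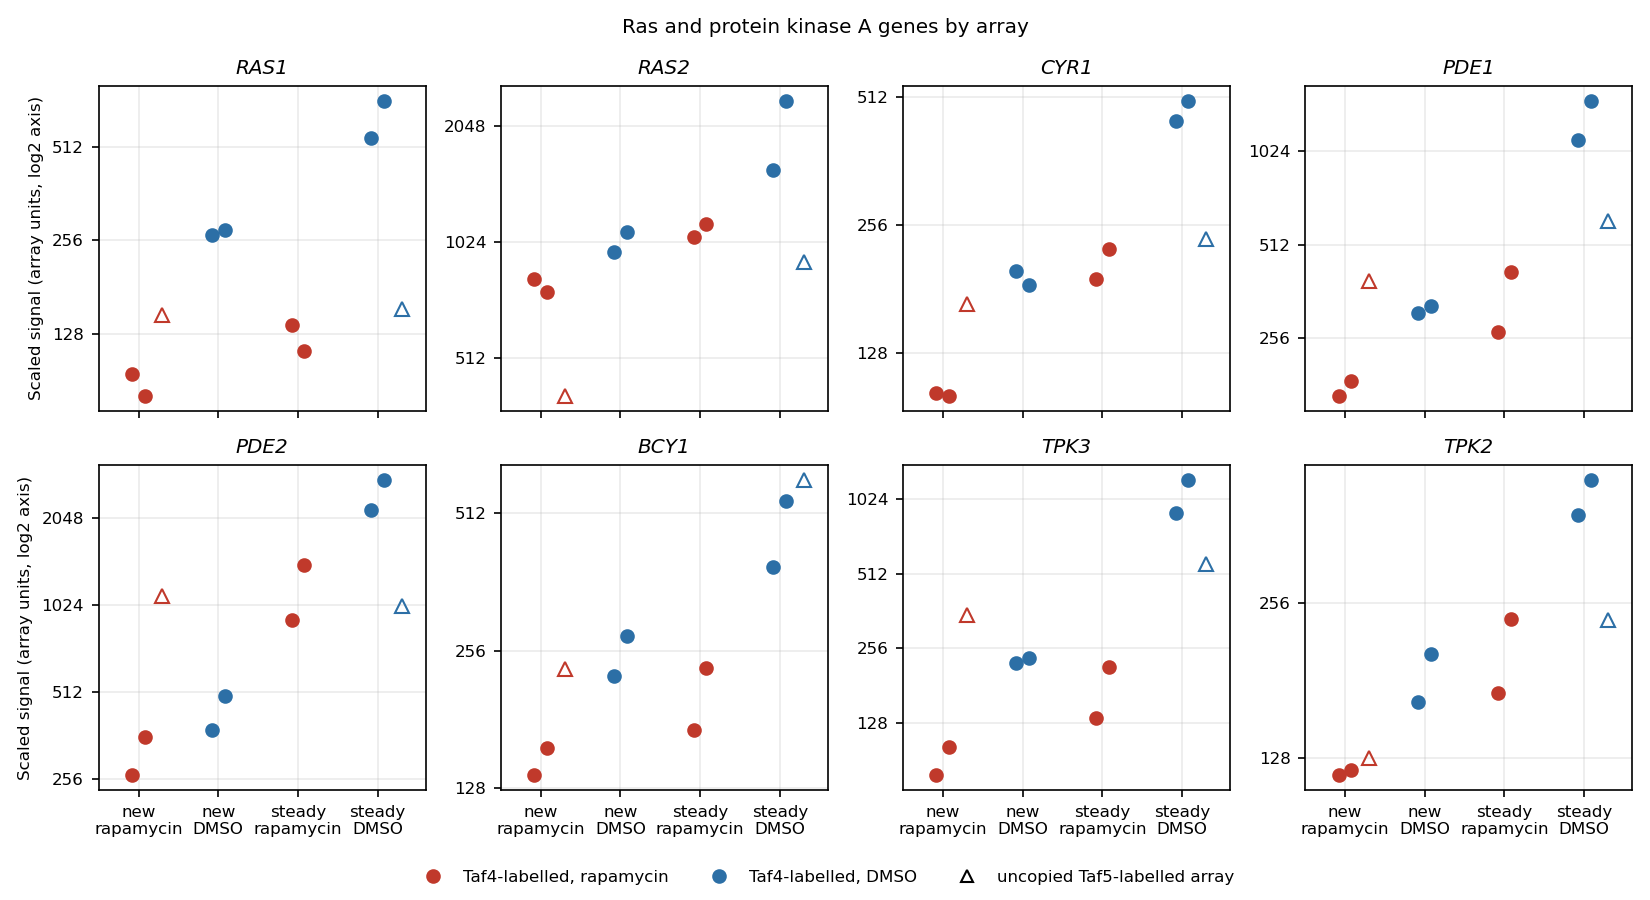
Scaled signal (array units, log2 axis) of the 8 genes on each distinct array, with rapamycin (red) left of DMSO (blue) for newly synthesized (new) and steady-state RNA. Circles are Taf4-labelled arrays and open triangles the 2 Taf5-labelled arrays that copy no other; both rapamycin circles lie below both DMSO circles of the same fraction in all 8 genes.

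Over the 8 genes the median change was -0.81 in newly synthesized RNA and -1.20 in steady-state RNA, against -0.78 and -1.17 for all 4360 tested genes (log2). As a description of values that also chose the genes, 6 of 8 were lower and 0 higher at limma's adjusted p under 0.05 in newly synthesized RNA, where 79.4% of all genes were lower and 1.79% higher. PDE2 and RAS2 were the 2 that did not pass. In steady-state RNA 8 of 8 were lower and 0 higher, against 86.8% lower and 1.42% higher of all genes. In both fractions 0 of 8 were higher at an unadjusted p under 0.05. As single arrays were left out, the count of lower genes in newly synthesized RNA rose or fell, among the 8 genes and among all genes.

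**Figure D2:**
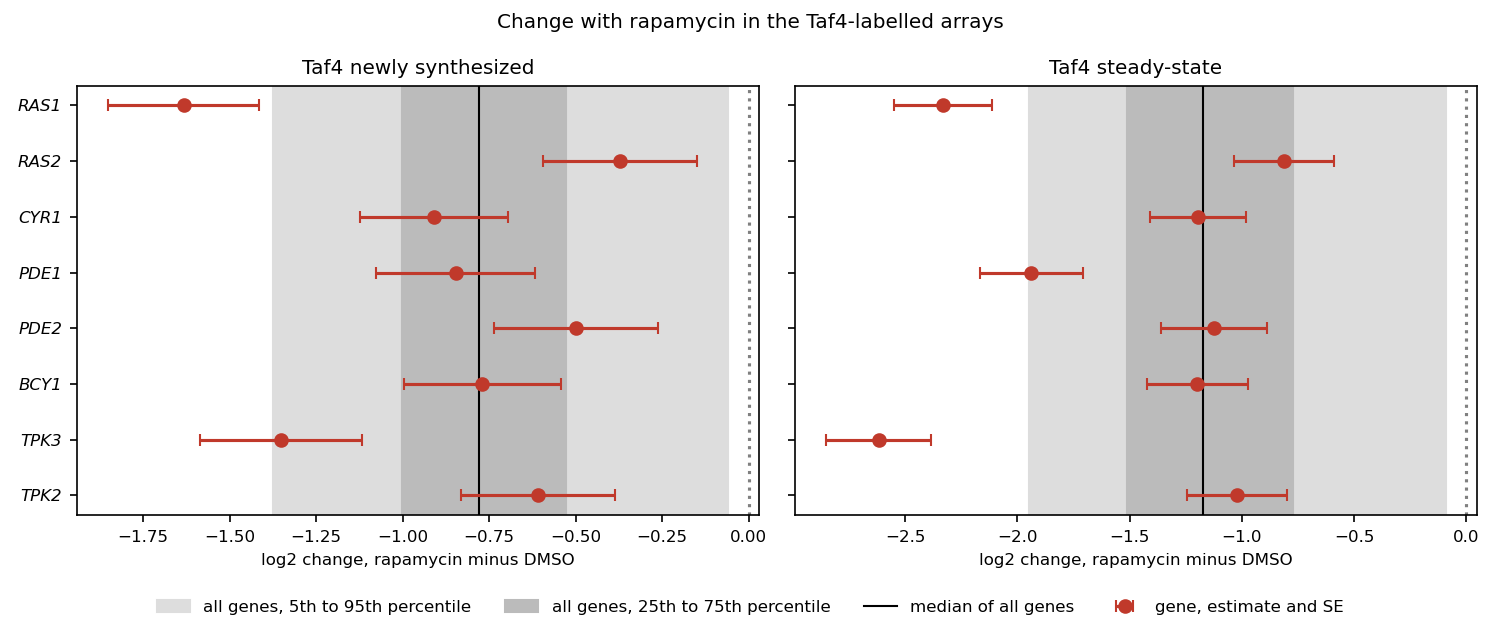
Log2 change, rapamycin minus DMSO, of the 8 genes in Taf4-labelled newly synthesized and steady-state RNA (points, with SE from the model, n = 2 arrays per group). Grey bands span the 5th to 95th and the 25th to 75th percentile of all 4360 tested genes, and RAS1 lies left of the bands in both panels while TPK3 does so in steady-state RNA.

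The paralogs were then set against each other within each array, where a shift common to the array cancels. Probe sets differ in brightness, so only the change of such a difference between arrays can be read. The log2 difference TPK3 minus TPK2 was -0.58 and -0.25 with rapamycin and 0.45 and 0.21 with DMSO in newly synthesized RNA. In steady-state RNA it was -0.36 and -0.15 with rapamycin and 1.23 and 1.45 with DMSO. The rapamycin and DMSO arrays did not overlap in either fraction, here or in the pairs below. The share of other gene pairs that separate in this way was not computed. TPK3 minus TPK2 changed by -0.74 (SE 0.18) in newly synthesized and -1.60 (SE 0.18) in steady-state RNA. These arrays also chose the genes, so the change is a description. With rapamycin the values of the fractions overlapped, whereas with DMSO they lay apart.

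For RAS1 minus RAS2 the log2 difference was -3.12 and -3.23 with rapamycin and -1.85 and -1.97 with DMSO in newly synthesized RNA. In steady-state RNA it was -2.95 and -3.34 with rapamycin and -1.52 and -1.72 with DMSO. The change was -1.26 (SE 0.17) in newly synthesized and -1.52 (SE 0.17) in steady-state RNA. With a loess curve fitted to S. pombe probe sets in place of an even shift, the steady-state change of this pair was -0.75, while that of the TPK pair was -1.66. PDE1 minus PDE2 was -0.66 and -0.93 with rapamycin and -0.29 and -0.60 with DMSO in newly synthesized RNA, and -1.76 and -1.75 with rapamycin and -0.97 and -0.90 with DMSO in steady-state RNA. Its change was -0.35 (SE 0.15) in newly synthesized and -0.81 (SE 0.15) in steady-state RNA, and the steady-state value was -0.49 with the loess curve. Each SE pools the spread within the 4 Taf4-labelled groups, with 4 residual degrees of freedom.

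**Figure D3:**
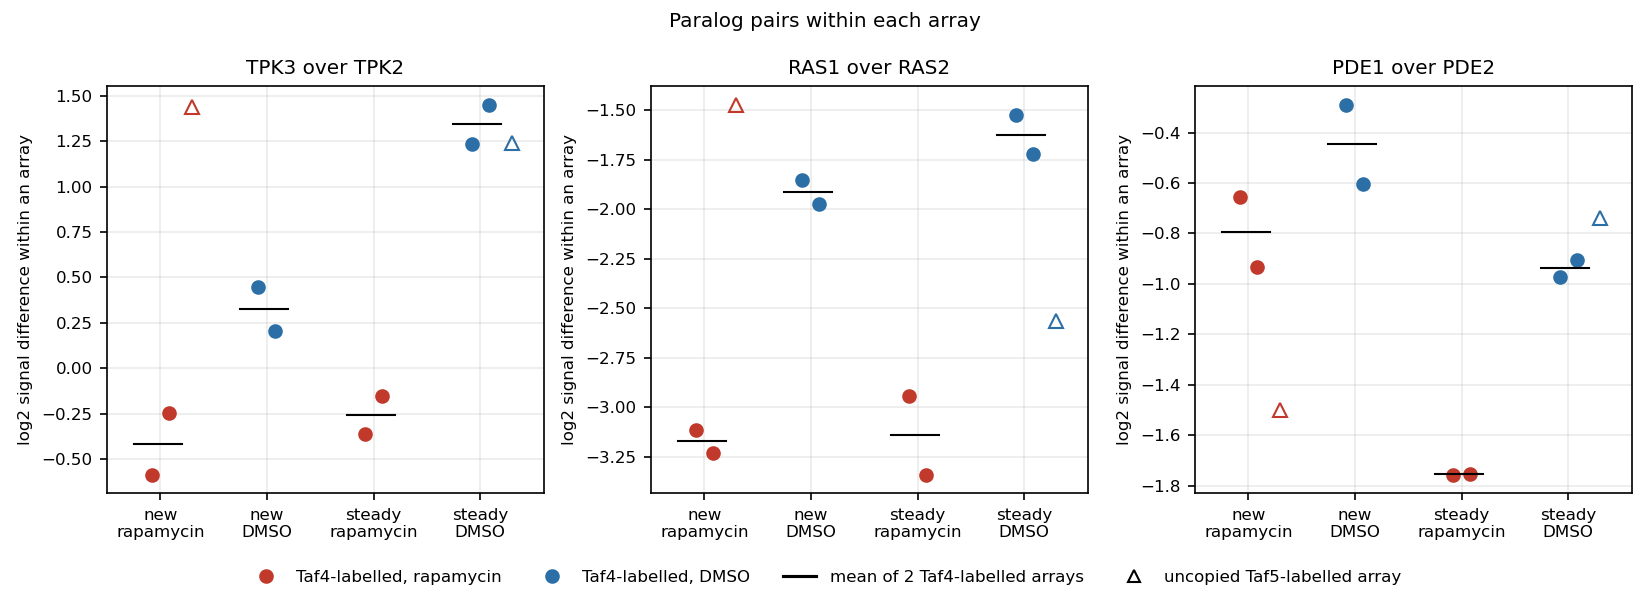
Log2 signal difference between the 2 genes of a pair within each array, with rapamycin (red) left of DMSO (blue). Circles are Taf4-labelled arrays, lines their means and open triangles the uncopied Taf5-labelled arrays. The rapamycin circles lie below the DMSO circles in each fraction. The rapamycin triangle lies at 1.44 for TPK3 over TPK2, near the steady-state DMSO circles, and above every DMSO circle for RAS1 over RAS2.

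The rule that chose the genes did not use the 2 Taf5-labelled arrays that copy no other. Earlier results of these data were known at the choice, however, and each is a single array of its group. The array labelled Taf5 newly synthesized replicate 2 with rapamycin had a TPK3 signal of 347 units, above the 4 Taf4-labelled rapamycin arrays and also above both newly synthesized DMSO arrays. Its TPK2 signal of 128 lay close to the newly synthesized rapamycin arrays, so that TPK3 minus TPK2 was 1.44. The lower TPK3 signal relative to TPK2 seen in the Taf4-labelled rapamycin arrays was therefore not seen on this array.

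The same array had 147 units for RAS1 and 409 for RAS2, the lowest RAS2 signal of the 10 arrays. RAS1 minus RAS2 was -1.47, above every DMSO array labelled Taf4. The lower RAS1 signal relative to RAS2 was therefore not seen on this array either. For PDE1 the array had 390 units and for PDE2 1104, a difference of -1.50 that lies below every DMSO array labelled Taf4. The other uncopied array, Taf5 steady-state replicate 2 with DMSO, had 561 units for TPK3 and 238 for TPK2, a difference of 1.24 that lies beside the steady-state DMSO arrays labelled Taf4. Its RAS1 signal was 154 units and its RAS2 signal 909, a difference of -2.57 that lies between the rapamycin and the DMSO arrays labelled Taf4. Its PDE1 minus PDE2 of -0.74 lies above both steady-state DMSO arrays labelled Taf4. The difference between strain labels was not tested. In their groups, the differences between replicate 2 and replicate 1 correlated at 0.64 over 5498 probe sets, against 0.05 to 0.10 for the other Taf5 pairs of groups, so the 2 uncopied arrays departed from their partners together.

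Fits over the 8 Taf5-labelled columns rest on 6 arrays that also carry a Taf4 label, so they are not a second measurement. In columns labelled Taf5 newly synthesized, 8 of 8 genes were lower by limma and 0 higher, against 88.1% and 0.0459% of all genes, with changes between -1.20 for BCY1 and -2.27 (SE 0.49) for TPK3. In columns labelled Taf5 steady-state, 5 of 8 were lower and 0 higher, against 50.2% and 0.161% of all genes, with changes from -0.25 for RAS2 to -1.98 (SE 0.49) for TPK3. Leaving out a single array could remove every gene called lower in that comparison, among the 8 genes and among all genes alike. TPK3 had -1.32 there without replicate 2 with DMSO, the uncopied array, and -1.79 without rapamycin replicate 1. In the newly synthesized columns too, leaving out a single array could lower the count of the 8 genes and that of all genes.

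The changes were also set side by side between the fractions, as labelled. The newly synthesized change minus the steady-state change was positive for all 8 genes and for the median of all genes (0.39, log2). With equal S. cerevisiae medians it was below 0 for 4 of the 8, at -0.16 for CYR1, -0.03 for TPK2, -0.02 for BCY1 and -0.002 for RAS2. TPK3 had 1.27 (SE 0.33) and PDE1 1.09 (SE 0.32), which 99.1% and 97.7% of genes lay below. With the fraction labels turned these would be -1.27 and -1.09, with 0.9% and 2.3% of genes below. The other 6 ranged from 0.29 for CYR1 to 0.70 for RAS1. By limma 1 of 8, TPK3, was past the threshold in the positive and 0 in the negative direction, a count that rests on the values that chose the genes, against 1.19% and 0.138% of all genes and 32.6% of S. pombe probe sets in either direction. TPK3 missed the threshold without DMSO replicate 1 or 2 (1.23 and 1.30) or rapamycin replicate 2 (1.08) of newly synthesized RNA, and without DMSO replicate 2 (1.04) or rapamycin replicate 1 (0.93) of steady-state RNA.

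Steady-state signals stood above newly synthesized ones in all 8 genes under DMSO, relative to the spike-in. Most genes at large did the same, with a 25th percentile of 0.74 and a 5th percentile of -0.16 over all tested genes (log2). Of the 8 genes PDE2 had the largest difference, 2.51 (SE 0.24) on the log2 scale, which 99.6% of genes lay below. TPK3 (2.18, SE 0.24) and PDE1 (2.02, SE 0.23) followed. With the fraction labels turned, PDE2 would have -2.51, which 0.4% of genes lay below, and be the lowest of the 8. BCY1 had the smallest, 0.88 (SE 0.23), and the median gene had 1.27. With rapamycin the difference was 1.89 for PDE2 but only 0.92 for TPK3 and 0.93 for PDE1, beside a median of 0.83 for all genes. PDE2 kept its high place among genes, with 98.4% below it, whereas TPK3 and PDE1 had 55.8% and 56.6% below them.

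The size of every fall depends on the scaling. With S. cerevisiae medians made equal, the median of the 8 genes was 0.02 in newly synthesized and 0.07 in steady-state RNA. TPK3 (-0.53 and -1.35) and RAS1 (-0.81 and -1.06) remained below 0 in both fractions under the 4 scalings, as did PDE1 (-0.02 and -0.67), while RAS2 was 0.45 and 0.46 and TPK2 0.21 and 0.25. The spike-in cells have Ras and cyclic AMP genes of their own. S. pombe cyr1 measured 110 and 111 units with rapamycin and 114 and 125 with DMSO in newly synthesized RNA, and 131 and 149 with rapamycin and 210 and 184 with DMSO in steady-state RNA. The steady-state change of -0.49 (SE 0.14) passed by limma (adjusted p = 0.0121), and S. pombe ras1 changed by 0.61 (SE 0.16, adjusted p = 0.00636). Of 1397 S. pombe probe sets 54.2% passed in steady-state RNA and 0 in newly synthesized RNA by limma, where 45 had an unadjusted p under 0.05. The part of this uneven spike-in in the steady-state values of the 8 genes was not tested.

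**Figure D4:**
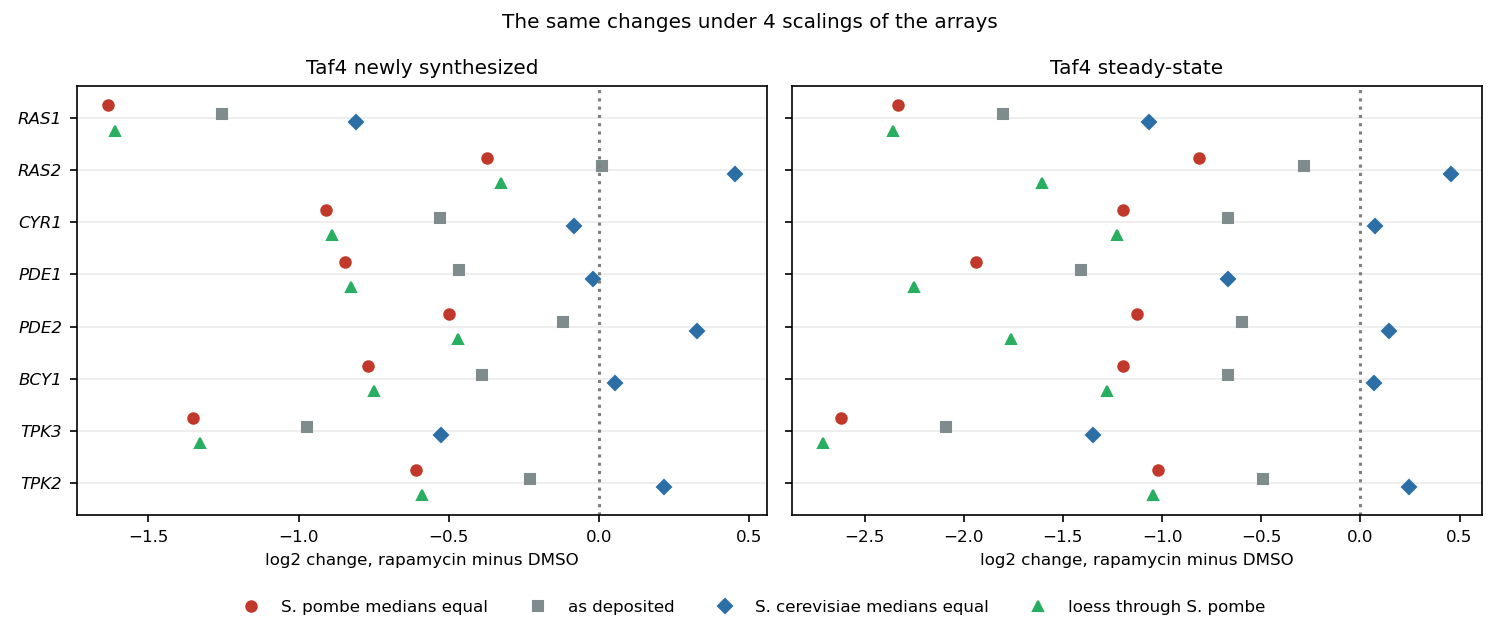
Log2 change, rapamycin minus DMSO, of the 8 genes under 4 scalings of the arrays: S. pombe medians equal (circles), values as deposited (squares), S. cerevisiae medians equal (diamonds) and a loess curve fitted to S. pombe probe sets (triangles). TPK3 and RAS1 lie left of 0 under each scaling, and TPK2 and RAS2 lie right of 0 with equal S. cerevisiae medians.

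Most other genes of the pathway fell too, as did most genes at large. By limma 79.4% of all tested genes were lower in newly synthesized and 86.8% in steady-state RNA. The lists were written with earlier results of these data known. Genes named from them are among the 2 lowest and 2 highest of their list in steady-state RNA. Their p-values, here and in the lists below, are those of picked extremes and serve as a description. Among regulators and processing enzymes of Ras, 9 of 11 tested genes fell and 1 rose in each fraction, with medians of -0.69 and -1.03 in newly synthesized and steady-state RNA. RAM1, a subunit of the farnesyltransferase that prenylates Ras, fell by 2.44 (log2, SE 0.24) in steady-state RNA and RCE1, the protease that trims prenylated proteins, by 1.83 (SE 0.24), with adjusted p-values of 3.27e-10 and 2.48e-08 by limma (n = 2 per group). TFS1, an inhibitor of carboxypeptidase Y that also acts on the Ras inhibitor Ira2, was the gene that rose, by 1.09 (SE 0.23, adjusted p = 0.000167) in newly synthesized and 1.34 (SE 0.23, adjusted p = 3.05e-06) in steady-state RNA.

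In the glucose receptor branch, 6 of 7 genes fell in each fraction and 0 rose, with medians of -0.93 and -1.27. Of all genes 79.4% fell in newly synthesized and 86.8% in steady-state RNA. GPB1, a kelch-repeat partner of the G protein, changed by -1.91 (SE 0.23) and GPA2, the G protein alpha subunit gene, by -1.48 (SE 0.23) in steady-state RNA, with adjusted p-values of 6.08e-09 and 7.63e-07 by limma. RGS2, which encodes an inhibitor of Gpa2, had -0.42 (SE 0.22) and did not pass (adjusted p = 0.0738). Of 18 listed targets of the kinase and opposing kinases, 12 were tested, of which 7 fell in newly synthesized and 11 in steady-state RNA, beside the same shares of all genes. Their medians were -0.65 and -1.075, against -0.78 and -1.17 for all genes. SOK2, a transcriptional regulator, had -2.44 (SE 0.24) and NTH1, the neutral trehalase that the kinase activates, had -0.21 (SE 0.23), with adjusted p-values of 2.82e-10 and 0.383 in steady-state RNA by limma.

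Related families were listed as well. Of 13 other AGC kinase genes, the family to which protein kinase A belongs, 10 were tested and 9 fell in each fraction. Of all genes 79.4% were lower in newly synthesized and 86.8% in steady-state RNA. The medians of the AGC kinase genes were -0.70 and -1.39. YPK3, at the upper end of this list, had -0.40 (SE 0.23, adjusted p = 0.0979 by limma) in steady-state RNA and did not pass. PKH1, a kinase that phosphorylates other AGC kinases, had -2.30 (SE 0.23) and DBF20, of the mitotic exit network, had -1.75 (SE 0.23) in steady-state RNA, with adjusted p-values of 5.38e-10 and 3.26e-08 by limma. Of 13 other small GTPase genes, 11 fell in newly synthesized and 10 in steady-state RNA, and 0 rose. RSR1, a Ras-like GTPase of bud site selection, had -1.44 (SE 0.22, adjusted p = 4.75e-07 by limma) in steady-state RNA, and GSP2, a Ran GTPase gene, had -0.16 (SE 0.22, adjusted p = 0.487 by limma). Their steady-state median of -0.65 lay 0.53 above that of all genes, but with loess 13 of 13 fell and the median was -1.65, beside -1.56 over all genes. With equal S. cerevisiae medians the medians of these 5 lists, in the order given, were 0.13, -0.11, 0.17, 0.12 and 0.10 in newly synthesized and 0.24, -0.006, 0.19, -0.12 and 0.62 in steady-state RNA.

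Genes that Msn2 and Msn4 activate, and that the kinase restrains through them, moved the other way under the Taf4 labels. Of 12 such genes 10 rose and 1 fell in newly synthesized RNA, and 7 rose and 1 fell in steady-state RNA, with medians of 1.02 and 0.71. Of all tested genes 1.79% were higher in newly synthesized and 1.42% in steady-state RNA by limma. DDR2, a stress gene, rose by 2.25 (SE 0.21) and 2.84 (SE 0.21), and HSP26, a small heat shock protein gene, by 1.58 (SE 0.23) and 2.92 (SE 0.23), with adjusted p-values between 1.81e-06 and 3.14e-12 by limma. SSA3, an Hsp70 gene, was the gene that fell, by 0.84 (SE 0.23, adjusted p = 0.00139 by limma) and 1.87 (SE 0.23, adjusted p = 7.51e-09 by limma). In steady-state RNA 11 rose with equal S. cerevisiae medians or the values as deposited, and 5 under the loess curve. Far more of all genes rose with equal S. cerevisiae medians than under the other scalings, as counted in the last section. In columns labelled Taf5 newly synthesized 0 rose and 2 fell by limma, against 0.0459% and 88.1% of all genes. In those labelled Taf5 steady-state 5 rose and 1 fell, against 0.161% and 50.2% of all genes.

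**Figure D5:**
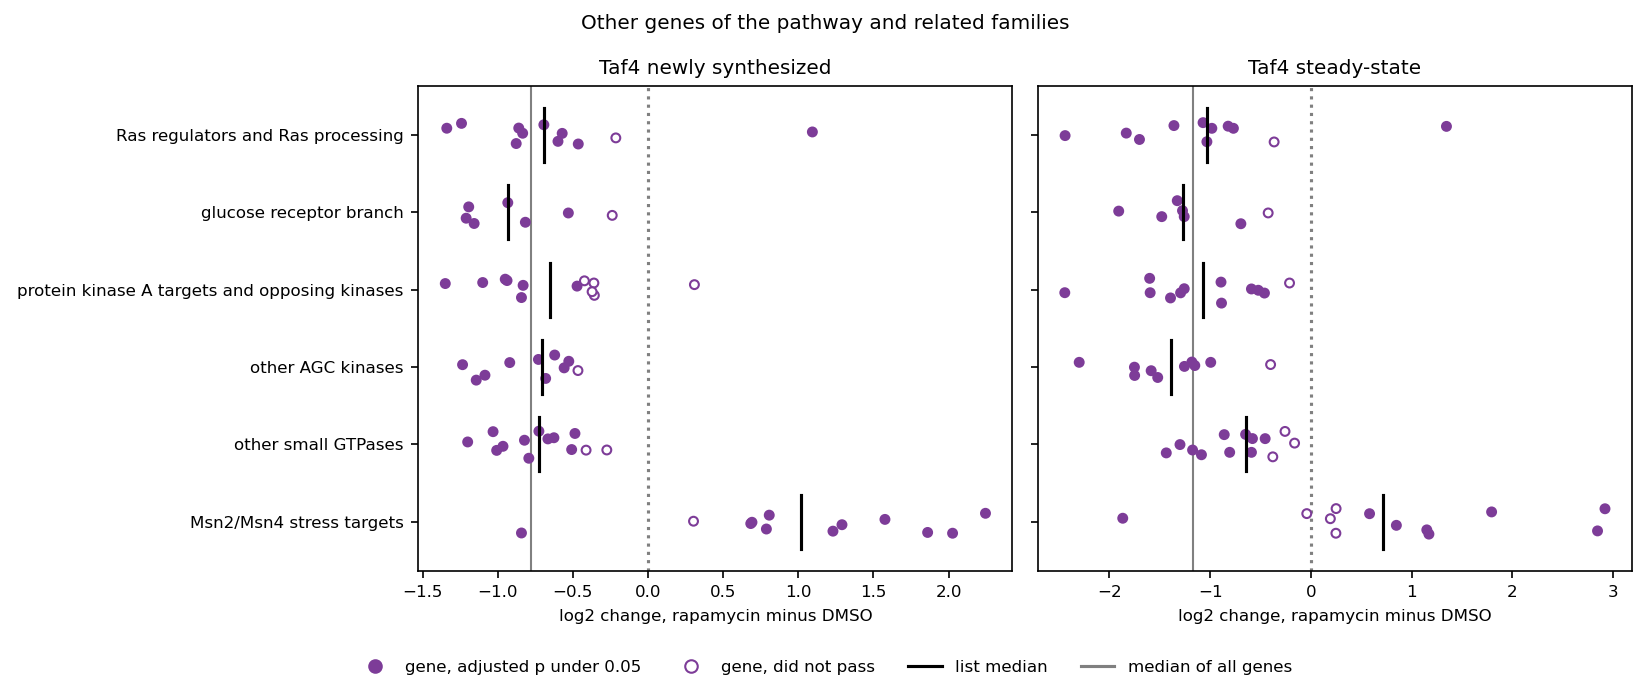
Log2 change, rapamycin minus DMSO, of each tested gene of 6 lists in Taf4-labelled newly synthesized and steady-state RNA. Filled points passed at an adjusted p under 0.05 by limma, short black lines are list medians and the grey line is the median of all genes; the stress targets are the list whose median lies right of 0 in both panels.

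The genes whose pattern over the 8 Taf4-labelled arrays was most like that of TPK3 were IRC8, RAM1, YER137C, PKH1 and SOK2. Likeness was the root mean square difference of log2 values after each gene's own mean was removed, and it was 0.15 for IRC8 and 0.18 for SOK2, against a median of 0.66 over all genes. For TPK2 the nearest were RIB1, CCT7, KIC1, IGO2 and ZIM17, at 0.06 to 0.07, against a median of 0.34. The steady-state changes of the first 5 genes lay between -2.30 and -2.56 and those of the second 5 between -0.96 and -1.05 (log2). These genes were picked as the nearest over the same arrays. Their small differences and their changes close to those of TPK3 and TPK2 therefore follow from the choice.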

How the data were processed

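Affymetrix Yeast Genome 2.0 arrays, 1 sample each, were used. The authors deposited 1 linear intensity per probe set and array. Per the submitters' processing notes, Expression Console 1.4.1 from Affymetrix was used, with no word on how probes were summarised or background removed. The mean after trimming 2% per end is near 500 in Taf4-labelled and near 100 in Taf5-labelled columns. Of 10928 probe sets, 7244 had 1 symbol, 1 several and 3683 none in the annotation used here, and 5498 matched S. cerevisiae genes by Entrez identifier. The build behind the array's annotation is not given, and positions are those of R64.

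Values were taken as log2 and each array was shifted to an equal S. pombe median. The brightest probe set stood for a gene, and genes in the dimmest 20% were not tested. All tested genes of the 8 columns of 1 strain label were fitted together with limma 3.58.1 in R 4.3.3 (two-sided, Benjamini-Hochberg adjusted per comparison). The fit was also run on simulated data, but the outcome is not reported here and no result rests on it. The genes and lists were chosen with earlier results of these data known. Text names all 8 genes and, of each list, some of the 2 lowest and 2 highest in Taf4 steady-state RNA. The S. pombe genes and the loess check of the pairs were chosen after seeing the data. The number of arrays limits the precision. Alternatives were other scalings (as deposited, S. cerevisiae medians, loess with span 0.7), filters (none, 40%), averaged probe sets, an intensity-dependent prior variance, a replicate block and leaving out each array.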

Additional observations from a re-analysis of the deposited data

Results flagged for a closer look

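The change of TPK3 with rapamycin was past limma's threshold for a difference between the fractions, in the values that also chose the gene, so this is a description and not a test. The newly synthesized change was -1.35 and the steady-state change -2.62 (log2), a difference of 1.27 (SE 0.33, n = 2 arrays per group), and under the main scaling the 7 other genes were positive too. With equal S. cerevisiae medians the TPK3 difference was 0.82 and did not pass, while 32.6% of the spike-in's probe sets passed this comparison under the main scaling.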

How the results depend on the processing

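Counts are of the 8 genes lower with rapamycin, by limma. Without single arrays they ranged from 4 to 7 (Taf4 newly synthesized), 8 to 8 (Taf4 steady-state), 5 to 8 (Taf5 newly synthesized) and 0 to 7 (Taf5 steady-state), and the count in the difference between fractions from 0 to 3. With equal S. cerevisiae medians they were 2, 3, 0 and 0, with 1 higher in each Taf4 comparison and 0 in the difference between fractions, where 2 had an unadjusted p under 0.05; the same was true of 0 genes in both Taf5 comparisons. Among genes that had passed, 5 then turned in Taf4 steady-state RNA, TPK2 (0.25), BCY1 (0.070), CYR1 (0.073), PDE2 (0.14) and RAS2 (0.46), as did TPK2 (0.21) and BCY1 (0.054) in newly synthesized RNA and TPK2 (0.067), BCY1 (0.34), CYR1 (0.13) and PDE2 (0.24) in columns labelled Taf5 newly synthesized. Of genes that had not passed, PDE2 (0.33) and RAS2 (0.45) turned in Taf4 newly synthesized RNA and TPK2 (0.26) and RAS2 (0.73) in Taf5 steady-state columns, and as deposited RAS2 was 0.008 and 0.17 there. Of listed genes, ASC1 (0.29 and 0.57), PKH2 (0.30 and 0.28), DBF20 (0.20), GPB1 (0.008), RHO4 (0.003), SHR5 (0.36) and YPK3 (0.10) turned in newly synthesized or both fractions, and CDC19 in steady-state RNA (0.81, and 0.068 as deposited). As deposited, 1 passed in Taf5 newly synthesized and 0 in Taf5 steady-state columns (6 and 2 at an unadjusted p under 0.05). With the 40% filter 5 genes were tested, of which 5 passed in Taf4 steady-state, 5 in Taf5 newly synthesized and 3 in Taf5 steady-state RNA. In the difference between fractions 4 passed with loess, 2 with an intensity trend, 0 with no filter (3 at an unadjusted p under 0.05) and 3 with the replicate block. Replicate numbers are not shown to pair samples: replicate differences of rapamycin and DMSO arrays correlated over genes at 0.05 and 0.08 in the Taf4 fractions, and between all Taf5 pairs of groups at 0.05 to 0.64, the highest for the groups that hold the uncopied arrays, and the block changed no other count of the 8 genes by over 1.5 times.

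Over all genes, 3462 were lower and 78 higher in Taf4 newly synthesized and 3786 and 62 in Taf4 steady-state RNA. With equal S. cerevisiae medians these were 389 and 680, and 787 and 1394, and as deposited 2114 and 188 in newly synthesized RNA. In steady-state RNA 259 were higher as deposited and 29 with loess. In the difference between fractions 6 were negative and 52 positive. These were 61 and 19 with equal S. cerevisiae medians, 22 and 88 as deposited, 1 and 1 with no filter, 17 and 194 with an intensity trend and 38 and 1004 with the replicate block, while 2139 were positive with loess and 29 with the 40% filter. In Taf5 newly synthesized columns 3840 were lower and 2 higher, against 1105 and 8 as deposited and 0 and 0 with equal S. cerevisiae medians, and 7 were higher with no filter and 0 with the 40% filter. In Taf5 steady-state columns 2188 were lower and 7 higher, against 0 and 0 as deposited and with equal S. cerevisiae medians, 1436 lower with the 40% filter and 12 higher with the replicate block.
At an unadjusted p under 0.05, where those Taf5 counts were 0, limma gave 155 lower and 476 higher genes in newly synthesized and 172 and 316 in steady-state columns with equal S. cerevisiae medians. It gave 1290 and 47 in steady-state columns as deposited, and 0 higher in newly synthesized columns with the 40% filter.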
